A study of Homo sapiens with 6 samples.

Results

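KMT2A, its partners in the leukaemic fusion complex and the core of its methyltransferase complex were followed as 10 genes: the methyltransferases KMT2A and DOT1L, the fusion partners MLLT1, MLLT3 and AFF1, the adaptors MEN1 and PSIP1, and the COMPASS core subunits WDR5, ASH2L and RBBP5. They were chosen by name from the known composition of these complexes, and all 10 were found among the 25420 genes of the tables by Entrez identifier. The samples were 6 SLAM-seq libraries from MOLM-13, a leukaemia cell line derived from secondary acute myeloid leukaemia that carries an MLL-AF9 (KMT2A-MLLT3) fusion and an internal tandem repeat in FLT3. In 3 libraries, labelled C646, the cells had received 10 µM C646, an inhibitor of the acetyltransferases CBP and p300, for 2 h, and in the other 3 they had received the solvent DMSO. Both groups were given 100 µM 4-thiouridine (4sU) for the last 60 min. The study asked which genes lose newly made RNA soon after the inhibition, and the same question was put here to the 10 genes.

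SLAM-seq tells new RNA from old within 1 library. RNA made during the labelling takes up 4sU, and after alkylation its positions are sequenced as C, so a read with at least 1 such T>C conversion (a T>C read) counts towards new RNA, and all reads together give total RNA. The share of a gene's reads that are T>C reads (the T>C share) rises with synthesis and falls with the amount of older RNA. All samples had received 4sU, so the T>C reads that sequencing errors and variants give without label were not measured here.

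KMT2A places methyl groups on lysine 4 of histone H3, and does so in a complex with WDR5, ASH2L and RBBP5, subunits that all COMPASS methyltransferases share. In KMT2A-rearranged leukaemia a translocation joins the front part of KMT2A to a partner such as MLLT3, MLLT1 or AFF1. Menin (MEN1) and LEDGF (PSIP1) hold the fusion protein on chromatin, the partners recruit the super elongation complex and the H3 lysine 79 methyltransferase DOT1L, and genes such as HOXA9 and MEIS1 stay highly transcribed.

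The promoters of 4 of the genes are printed because they stand at the ends of what was measured: MLLT1 lost the most new RNA of the tested members, KMT2A had the highest T>C share in DMSO, and MEN1 and RBBP5 were the tested members whose T>C share did not pass the test. Each is the RefSeq window of 250 bases before to 50 bases after a start site in GRCh38.p14, 5′ to 3′ on the strand of the gene. Capitals mark GC boxes (GGGCGG, or CCGCCC on the other strand) and CCAAT boxes (CCAAT, or ATTGG on the other strand). The windows are, in this order, chr19:6279926-6280225 on the minus strand, chr11:118436242-118436541 on the plus strand, chr11:64810502-64810801 on the minus strand (1 of 2 overlapping windows of MEN1) and chr1:205121929-205122228 on the minus strand.
MLLT1: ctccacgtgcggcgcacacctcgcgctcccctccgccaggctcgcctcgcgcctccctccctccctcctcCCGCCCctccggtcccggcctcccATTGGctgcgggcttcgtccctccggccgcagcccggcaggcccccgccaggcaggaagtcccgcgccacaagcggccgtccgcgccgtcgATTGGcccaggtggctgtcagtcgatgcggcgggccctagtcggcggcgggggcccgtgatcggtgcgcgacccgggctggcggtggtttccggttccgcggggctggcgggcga
KMT2A: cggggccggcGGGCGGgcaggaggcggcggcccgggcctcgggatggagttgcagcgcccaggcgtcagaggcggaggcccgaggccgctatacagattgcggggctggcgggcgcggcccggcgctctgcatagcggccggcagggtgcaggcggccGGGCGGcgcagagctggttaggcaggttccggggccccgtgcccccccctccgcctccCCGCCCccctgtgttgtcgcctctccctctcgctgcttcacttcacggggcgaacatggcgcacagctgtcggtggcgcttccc
MEN1: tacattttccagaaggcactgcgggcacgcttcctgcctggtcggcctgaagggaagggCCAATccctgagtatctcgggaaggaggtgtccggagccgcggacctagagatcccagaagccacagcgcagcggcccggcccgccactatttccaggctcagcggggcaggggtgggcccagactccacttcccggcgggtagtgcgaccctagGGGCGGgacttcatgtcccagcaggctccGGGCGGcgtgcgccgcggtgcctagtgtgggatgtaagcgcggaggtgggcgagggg
RBBP5: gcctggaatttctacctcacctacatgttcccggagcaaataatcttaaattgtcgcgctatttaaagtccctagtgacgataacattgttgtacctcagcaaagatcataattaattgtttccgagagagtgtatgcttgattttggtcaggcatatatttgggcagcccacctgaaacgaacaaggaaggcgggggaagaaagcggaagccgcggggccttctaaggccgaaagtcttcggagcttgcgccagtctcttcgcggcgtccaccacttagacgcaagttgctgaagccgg

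The MLLT1 window held 43 CpG dinucleotides, 1 GC box and 2 CCAAT boxes, and the KMT2A window held 36 CpG dinucleotides and 3 GC boxes. In the MEN1 window there were 25 CpG dinucleotides, 2 GC boxes and 1 CCAAT box. RBBP5 had 18 CpG dinucleotides and neither box. The median of all 35116 RefSeq windows was 14 CpG dinucleotides. Windows were given for 8 of the 10 genes, 14 windows in all. A GC box was found in 10 of these 14, against 45.0% of all windows, and a CCAAT box in 7 of them, against 34.6%. TATAAA (or TTTATA) was in 0 of the 14 and in 11.5% of all windows. TGACG (or CGTCA) was in 2 of the 14, those of KMT2A and RBBP5, and in 24.6% of all windows. These are matches of letters only, and no factor binding was measured.

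The libraries held 7252597 to 10225448 reads on 3′ UTRs, of which 477824 to 833410 were T>C reads, and values are given as CPM, the T>C reads or all reads of a gene per 1000000 of the library's total of all reads, scaled by TMM (the markers below by the plain total). Of 10 myeloid markers, 9 were at 1 CPM or more in every library, while CD14 had 0 to 2 reads. Summed over 12 markers of other cell types, libraries had 169 to 186 CPM in DMSO and 111 to 155 in C646, and CD3E and HBB were at 0 in each library. PECAM1 gave most of the reads of those 12 in each library, with 1425, 1124 and 1065 in DMSO and 943, 897 and 895 in C646. These sums were lower in C646, though single markers of the list went the other way (COL1A1 had 22, 10 and 6 reads in DMSO and 43, 52 and 68 in C646), and their part in the results was not tested. In such bulk libraries, fewer cells of a kind and less RNA per cell cannot be told apart. The labels do not say whether replicates were separate cultures, so p-values measure the spread between these libraries, which may be technical.

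T>C reads, the measure of new RNA here, fell broadly. With edgeR's quasi-likelihood test and an adjusted p of at most 0.01 as the threshold, T>C reads were lower in C646 for 38.5% and higher for 3.76% of the 7760 genes tested, and 33.8% were lower with a log2 fold change of -1 or below. The median log2 fold change of T>C reads was -0.84. Total RNA was called lower for 6.85% and higher for 9.54% of 10851 genes, with a median of -0.02. A second test compared the odds of a T>C read within each gene, which needs no scaling between libraries. These odds were lower for 44.6% and higher for 1.13% of the 7760 genes, with a median log2 change of -1.0. Uptake of 4sU was not measured, and neither test corrects for a difference in it between the groups. If the T>C reads are scaled to their own TMM totals instead, the median moves to -0.05 and the calls change from 2991 lower and 292 higher to 784 lower (10.0%) and 826 higher (10.6%) of 7801 tested genes, so values below are read beside the medians.

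Of the 10 genes, 9 passed the filter on low counts for T>C reads, MLLT3 being the exception, and 4 of those 9 had less new RNA in C646, beside 38.5% of all tested genes: MLLT1, DOT1L, ASH2L and WDR5. All 4 were past a log2 fold change of -1, and the median of the 9 was -1.23, against -0.84 over all tested genes. For 0 of the 9 did T>C reads rise, by edgeR and by DESeq2, beside 3.76% of all tested genes with edgeR. At an unadjusted p under 0.05 the count was also 0 in either tool, beside 5.84% of all tested genes with edgeR. With T>C reads scaled to their own TMM totals 1 member was lower (MLLT1) and 1 higher (MEN1), beside the 10.0% and 10.6% of that fit. The T>C odds were lower for 7 of 9, all but MEN1 and RBBP5, beside 44.6% of all tested genes, and the members' median log2 change was -1.48, against -1.0. In total RNA AFF1 was the 1 of 10 genes that rose, in edgeR and in DESeq2, and 0 fell, beside 9.54% higher and 6.85% lower of all tested genes, so the count is near that of any genes. At an unadjusted p under 0.05, 3 genes were higher (AFF1, KMT2A and MEN1) and 0 lower in both tools, beside 21.5% higher and 21.3% lower of all genes tested with edgeR. The plot of CPM by library shows the new RNA of 8 genes lower in each C646 library than in any DMSO library (7 of the 9 tested genes, and MLLT3). The same held for 56.6% of all tested genes.

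**Figure D1:**
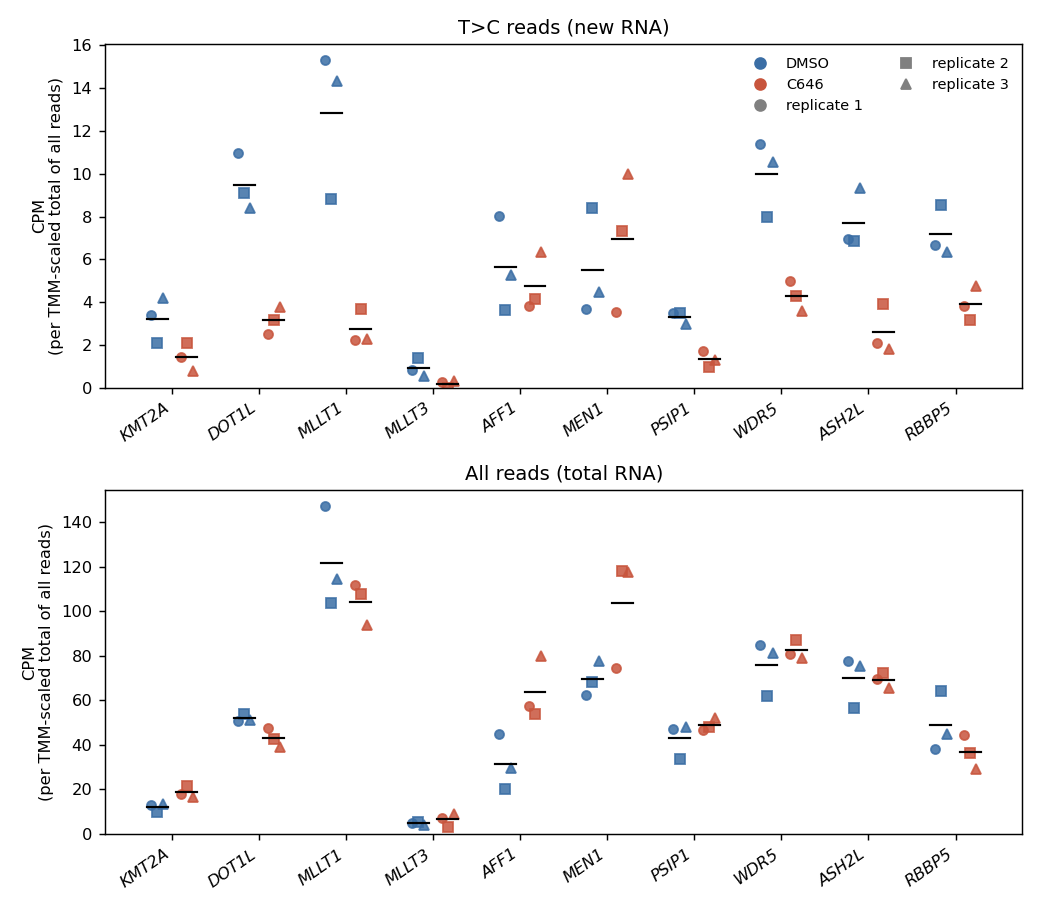
T>C reads (upper panel) and all reads (lower panel) of the 10 genes, in CPM of the TMM-scaled total of all reads, 1 point per library and a black line at the mean of 3. In the upper panel the DMSO and C646 points of MEN1 and AFF1 overlap and the other 8 genes are lower in each C646 library (KMT2A by 2.08 against 2.10 between its nearest points). In the lower panel AFF1 and KMT2A are higher in each C646 library and DOT1L lower. How many of all tested genes are separated in this way in all reads was not counted.

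The 2 histone methyltransferases differed in their level and shared a falling T>C share. KMT2A reads lay on the 3′ UTR at chr11:118522173-118526824 (GRCh38, plus strand). A transcript of the fusion ends with the 3′ UTR of MLLT3, so these reads stand for KMT2A transcripts that keep their own end. T>C reads of KMT2A were few, 32, 15 and 31 in replicates 1, 2 and 3 of DMSO, against 11, 17 and 8 in those of C646. They were at 3.38, 2.10 and 4.19 against 1.44, 2.08 and 0.793 CPM, so that the groups only just did not overlap. The log2 fold change was -1.18 ± 0.49 (SE) and did not pass (edgeR's quasi-likelihood test, adjusted p = 0.0416). All reads of KMT2A were at 13.1, 9.65 and 13.5 CPM in DMSO and at 17.8, 21.6 and 16.4 in C646, each C646 library being the higher, with a log2 fold change of 0.62 ± 0.21 that also did not pass (adjusted p = 0.0386). The share sets new against total RNA within 1 library and was apart between the groups. It was 25.8%, 21.7% and 31.0% in DMSO and 8.09%, 9.60% and 4.85% in C646. The odds fell by 2.14 ± 0.48 on the log2 scale (adjusted p = 0.000645), and 8.94% of tested genes fell further.

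DOT1L is the only known methyltransferase of H3 lysine 79 and is drawn to target genes by the fusion partners. Its reads lay at chr19:2229793-2232578 on the plus strand, where an exon of PLEKHJ1 lies on the other strand. The libraries were made with the FWD kit of QuantSeq, but whether the counting kept to the strand is not given in the sources used here. Some of the reads counted for DOT1L may thus be of PLEKHJ1, which was not tested. New DOT1L RNA was at 11.0, 9.09 and 8.39 T>C CPM in DMSO and at 2.49, 3.18 and 3.77 in C646, with no overlap. New RNA was 2.99-fold lower, a log2 fold change of -1.58 ± 0.30 (adjusted p = 6.35e-05). Scaled to the TMM totals of T>C reads, the value was -0.80 and did not pass (adjusted p = 0.0383). The T>C share dropped from 18.3% ± 2.91 to 7.46% ± 2.24 (SD, n = 3) and the odds fell by 1.48 ± 0.33 (adjusted p = 0.000579). Total DOT1L RNA, 51.9 ± 1.61 CPM in DMSO and 43.0 ± 4.48 in C646, was lower in each C646 library but did not pass (log2 fold change -0.27, adjusted p = 0.171).

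Of the fusion partners that passed the filter on low counts, MLLT1 had the largest fall in T>C reads. MLLT1 (ENL) reads acetylated histones through its YEATS domain and brings in the super elongation complex and DOT1L. Its reads lay at chr19:6210381-6213041 (minus strand), and it was the most abundant of the 10 genes in DMSO. T>C reads were at 15.3, 8.81 and 14.3 CPM in DMSO and at 2.22, 3.67 and 2.28 in C646. The lowest DMSO library was thus above the highest C646 library. New MLLT1 RNA was 4.72-fold lower (log2 fold change -2.24 ± 0.30, adjusted p = 4.95e-07), and 8.32% of tested genes fell further. MLLT1 was the 1 member that was also lower when T>C reads were scaled to their own totals. Its T>C share dropped from 10.5% ± 2.01 to 2.61% ± 0.723 and its odds fell by 2.12 ± 0.28 on the log2 scale (adjusted p = 1.3e-06). Total MLLT1 RNA was at 147, 104 and 115 CPM in DMSO and at 112, 108 and 93.7 in C646, which overlap (log2 fold change -0.23, adjusted p = 0.273).

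MLLT3 (AF9), a close relative of MLLT1, gives the fusion of MOLM-13 its second part. Its reads, at chr9:20341665-20346442 on the minus strand, cannot be split between the fusion transcript and the intact MLLT3 transcript, since both end there. It was the least abundant of the 10 genes in both groups, with 45, 37 and 30 reads in DMSO and 55, 26 and 91 in C646. Of these, 8, 10 and 4 were T>C reads in DMSO and 2, 0 and 3 in C646, each C646 library being below each DMSO library. Pooled over libraries this was 22 against 5 T>C reads, a ratio of 0.210 after scaling by library size, with a 95% interval of 0.0621 to 0.568 that covers counting error only. Without the filter on low counts the log2 fold change was -2.20 ± 1.10 (adjusted p = 0.111) and the change in odds was -2.97 ± 0.97 (adjusted p = 0.00787). Total MLLT3 RNA was 4.66 ± 0.563 CPM in DMSO and 6.46 ± 2.99 in C646, and the groups overlapped.

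AFF1 (AF4), a scaffold of the super elongation complex, had total RNA that rose and new RNA that overlapped between the groups. Its reads lay at chr4:87135702-87141054 (plus strand). All reads of AFF1 were at 44.6, 20.1 and 29.5 CPM in DMSO and at 57.6, 53.6 and 79.7 in C646, a 2.02-fold rise (log2 fold change 1.01 ± 0.24, adjusted p = 0.00583). The call was lost without DMSO replicate 2 (0.78, adjusted p = 0.023), DMSO replicate 3 (0.97, adjusted p = 0.0247), C646 replicate 2 (1.12, adjusted p = 0.0121) or C646 replicate 3 (0.81, adjusted p = 0.0164). T>C reads of AFF1 were at 8.02, 3.64 and 5.28 CPM in DMSO and at 3.79, 4.15 and 6.34 in C646, with a log2 fold change of -0.25 ± 0.33 (adjusted p = 0.54). That sign is not firm, since it was 0.10 without DMSO replicate 1 and 0.53 with T>C reads scaled to their own totals. The T>C share of AFF1 was steady within the groups, 18.0%, 18.1% and 17.9% in DMSO and 6.59%, 7.74% and 7.96% in C646. The odds fell by 1.44 ± 0.31 on the log2 scale (adjusted p = 0.000407).

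**Figure D2:**
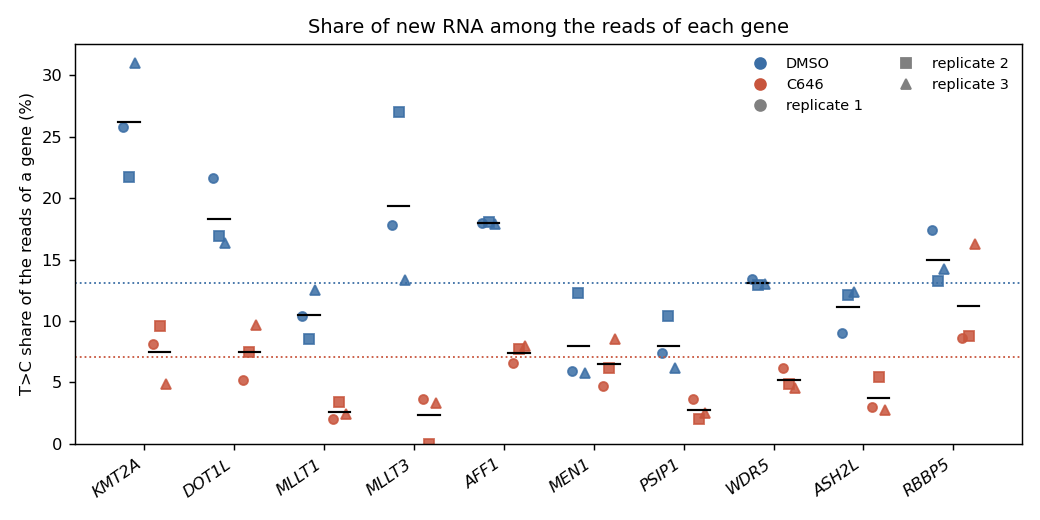
T>C share of the reads of each gene, in percent, 1 point per library with a black line at the mean of 3; the dotted lines are the means over 3 libraries of the median share of all tested genes, blue for DMSO and red for C646. The C646 points lie below all DMSO points for 8 genes, and overlap with them for MEN1 and RBBP5. How many of all tested genes are separated in this way in the share was not counted.

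For the adaptors MEN1 and PSIP1, T>C reads did not pass the test, and the odds passed for PSIP1; the difference between the genes was not tested. Menin, the product of MEN1, binds the front end of KMT2A and of its fusions, and its reads lay at chr11:64803514-64804333 (minus strand). T>C reads of MEN1 were at 3.69, 8.39 and 4.46 CPM in DMSO and at 3.53, 7.33 and 10.0 in C646. Both groups were spread widely and overlapped, with a log2 fold change of 0.36 ± 0.35 (adjusted p = 0.374). Against the falling median of all genes, 90.3% of tested genes had a lower value. When the T>C reads were scaled to their own TMM totals, MEN1 passed as higher (1.14, adjusted p = 0.00845). All reads of MEN1 were at 62.2, 68.4 and 77.4 CPM in DMSO and at 74.6, 118 and 118 in C646, where C646 replicate 1 lay within the DMSO range. The rise of 0.58 ± 0.18 in total RNA did not pass (adjusted p = 0.0211), and passed without C646 replicate 1 (0.77, adjusted p = 0.00212). The share was 5.94%, 12.3% and 5.77% in DMSO and 4.74%, 6.20% and 8.50% in C646. Its odds changed by -0.25 ± 0.32 (adjusted p = 0.496), a change above that of 85.8% of tested genes.

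PSIP1 encodes LEDGF, a chromatin reader that docks on menin and KMT2A. Its reads came from 2 3′ UTR entries on the minus strand, 2246 reads at chr9:15464066-15465519 and 74 at chr9:15470644-15471298. The first overlaps SNAPC3 on the other strand, so some reads counted there may be of SNAPC3, for the reason given for DOT1L. New PSIP1 RNA was at 3.48, 3.50 and 2.98 T>C CPM in DMSO and at 1.70, 0.977 and 1.29 in C646. The groups did not overlap, but the log2 fold change of -1.32 ± 0.47 did not pass (adjusted p = 0.0179). The T>C share dropped from 7.98% ± 2.16 to 2.71% ± 0.833. The odds fell by 1.61 ± 0.39 on the log2 scale and passed (adjusted p = 0.00128), though not without DMSO replicate 2, the library with the highest share (-1.40, adjusted p = 0.0133). Total PSIP1 RNA was 43.0 ± 8.05 CPM in DMSO and 49.0 ± 2.81 in C646, with overlap (adjusted p = 0.406).

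**Figure D3:**
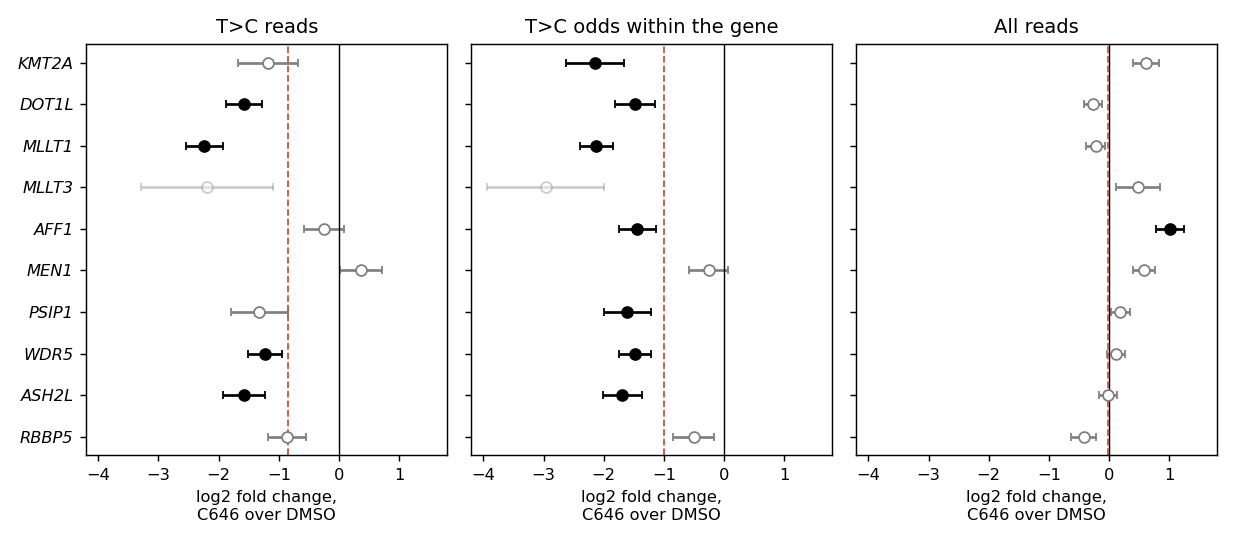
Log2 fold change of C646 over DMSO for T>C reads (left), T>C odds within the gene (middle) and all reads (right), with bars of 1 SE from edgeR fits over 3 libraries per group; filled points passed at an adjusted p of at most 0.01, and the red dashed line is the median of all tested genes. MLLT3 is drawn pale on the left and in the middle because it was below the filter on low counts. MLLT1 is the leftmost filled point for T>C reads at -2.24, and AFF1 is the filled point for all reads at 1.01.

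Among the COMPASS core subunits, WDR5 and ASH2L lost new RNA and RBBP5 did not pass, and the differences between these genes were not tested. WDR5, the propeller protein that joins the methyltransferase to the other subunits, had its reads at chr9:134157994-134159972 (plus strand). New WDR5 RNA was at 11.4, 7.97 and 10.6 T>C CPM in DMSO and at 4.97, 4.28 and 3.57 in C646. The groups did not overlap, and new RNA was 2.35-fold lower (log2 fold change -1.23 ± 0.28, adjusted p = 0.000538), while 33.2% of tested genes fell further. The WDR5 share was nearly the same in each DMSO library, 13.4%, 12.9% and 13.0%, and was 6.14%, 4.90% and 4.52% in C646. Its odds fell by 1.48 ± 0.27 (adjusted p = 7.01e-05). Total WDR5 RNA overlapped between the groups (75.9 ± 12.4 against 82.4 ± 4.35 CPM, adjusted p = 0.579).

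ASH2L, which with RBBP5 stimulates the methyltransferase, had its reads at chr8:38139072-38140080 (plus strand). T>C reads of ASH2L were at 6.97, 6.85 and 9.34 CPM in DMSO and at 2.09, 3.91 and 1.78 in C646. Again each C646 library was the lower, and new RNA was 2.98-fold lower (log2 fold change -1.58 ± 0.35, adjusted p = 0.000344). The share dropped from 11.2% ± 1.88 to 3.72% ± 1.48, and the odds fell by 1.69 ± 0.32 on the log2 scale (adjusted p = 0.000126). Total ASH2L RNA was 69.9 ± 11.5 and 69.1 ± 3.50 CPM (adjusted p = 0.939). With TMM on the T>C reads neither subunit passed: the log2 fold change was -0.44 for WDR5 (adjusted p = 0.248) and -0.78 for ASH2L (adjusted p = 0.0847).

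RBBP5, the subunit that links WDR5 to ASH2L, had its reads at chr1:205086142-205088786 (minus strand), and 2.69% of them were multimapped, against at most 0.446% for any other of the 10 genes. New RBBP5 RNA was at 6.65, 8.53 and 6.36 T>C CPM in DMSO and at 3.79, 3.18 and 4.76 in C646. These did not overlap, but the log2 fold change of -0.86 ± 0.31, close to the median of all genes, did not pass (adjusted p = 0.0187). C646 replicate 3 stood apart in the share, which was 17.4%, 13.3% and 14.2% in DMSO and 8.58%, 8.78% and 16.3% in C646. T>C conversions per 100 T positions covered were likewise 0.447, 0.591 and 1.62 in the C646 libraries, against 1.52, 1.11 and 1.12 in DMSO. The change in odds was -0.50 ± 0.34 (adjusted p = 0.199). Without C646 replicate 3 the T>C reads passed (-1.03, adjusted p = 0.00944) and the odds did not (-0.88, adjusted p = 0.0303). Total RBBP5 RNA was 49.0 ± 13.5 and 36.5 ± 7.50 CPM, with overlap (adjusted p = 0.128).

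In DMSO the 10 genes spanned a wide range of total RNA. These 3′ end libraries give about 1 tag per transcript, so CPM were compared between genes without division by length. MLLT1 stood highest at 122 ± 22.6 CPM. WDR5 at 75.9, ASH2L at 69.9 and MEN1 at 69.3 followed, each overlapping with the next. DOT1L at 51.9, RBBP5 at 49.0, PSIP1 at 43.0 and AFF1 at 31.4 formed the next run of overlapping neighbours, and KMT2A at 12.1 and MLLT3 at 4.66 stood apart below them. The median of all tested genes was 24.7 CPM. The order by T>C share was another. KMT2A at 26.2%, MLLT3 at 19.4%, DOT1L at 18.3% and AFF1 at 18.0% overlapped with their neighbours and were above the median of 13.3%. RBBP5 at 15.0% overlapped with WDR5 at 13.1%. ASH2L at 11.2%, MLLT1 at 10.5%, MEN1 at 7.99% and PSIP1 at 7.98% were lowest and again overlapped with their neighbours. The KMT2A share was above that of 79.0% of tested genes and the PSIP1 share above that of 25.1%.

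Gene length was set beside the changes in total RNA, as a description across genes that share the same 6 libraries. Over all 10833 genes with a length, Spearman's rho between length and the log2 fold change of all reads was 0.26, and over the 10 members it was 0.32. The median log2 fold change of all reads was -0.26 for genes under 10 kb and 0.19 for genes over 80 kb. MLLT3 (281 kb), AFF1 (206 kb) and KMT2A (90.3 kb) are over 80 kb, and their values of 0.48, 1.01 and 0.62 were above that median. Of the members from 30 to 80 kb, PSIP1 (0.19) was above the 0.04 of their class. DOT1L (-0.27), MLLT1 (-0.23), ASH2L (-0.02) and RBBP5 (-0.42) were below it. WDR5, at 24.8 kb, had 0.12 against -0.085 for genes of 10 to 30 kb. MEN1, at 7.78 kb the shortest of the 10, had 0.58 against the -0.26 of its class. For T>C reads rho was 0.12 over 7751 genes and -0.17 over 9 members, and for the T>C odds it was -0.04 and -0.47.

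The neighbouring complexes of the pathway were counted from lists of other genes. EAF2, MLLT10, EPS15, SEPTIN9, CDC73, LEO1, WDR82, KMT2C, KMT2D, DPY30, HCFC1, MEF2C, MYB, CDK6, PBX3 and JMJD1C are named below after their values were seen. In the super elongation complex, which releases paused RNA polymerase II, 2 of 7 tested genes had fewer T>C reads and 0 had more. The counts were the same by DESeq2. Of all tested genes 38.5% were lower and 3.76% higher. EAF2 was the 1 gene higher at an unadjusted p under 0.05 in edgeR, beside 5.84% of all tested genes. The median log2 fold change of the list was -0.46 against -0.84. The elongation factor ELL fell from 15.1 ± 2.35 to 1.92 ± 0.948 T>C CPM (log2 fold change -2.95 ± 0.32, adjusted p = 7.68e-09), and CCNT1, the cyclin partner of CDK9, fell from 40.2 ± 2.42 to 18.4 ± 3.98 (-1.13 ± 0.19, adjusted p = 1.08e-05). The odds were lower for 3 of these 7 genes, beside 44.6% of all tested genes, with a median of -1.02 against -1.0. In total RNA the ELL-associated factor EAF2 was the 1 of 9 tested genes that passed, as higher (1.93, adjusted p = 0.000128), beside 9.54% of all tested genes. Under TMM on the T>C reads the median of the list turned to 0.33, with ELL lower and EAF2 higher.

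The DOT1L complex and other fusion partners gave 0 calls in either direction among 4 tested genes, by edgeR and DESeq2, beside 38.5% lower and 3.76% higher of all tested genes, with a median of -1.0 against -0.84. At an unadjusted p under 0.05 in edgeR 4 were lower and 0 higher, beside 55.3% and 5.84% of all tested genes. With a replicate block EPS15 passed as lower, 1 of the 4, beside 39.4% of all tested genes. The odds were lower for 2 of the 4, beside 44.6% of all tested genes: MLLT10 (AF10), the DOT1L cofactor, at -1.96 and SEPTIN9 at -1.05. Of the PAF1 complex, which travels with elongating polymerase and binds KMT2A, 1 of 6 genes was lower in T>C reads, beside 38.5% of all tested genes: SKIC8 (-1.59 ± 0.45, adjusted p = 0.00383), and the median was -0.71 against -0.84. The odds were lower for 2 of the 6, LEO1 and SKIC8, beside 44.6% of all tested genes, with a median of -1.06 against -1.0. In total RNA 2 of its 6 genes were higher, CDC73 at 0.86 and LEO1 at 0.80, beside 9.54% of all tested genes. SKIC8 did not pass with TMM on the T>C reads, where the median of the PAF1 list was 0.08.

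Of the other COMPASS family and KMT2A-associated proteins, 9 of 14 tested genes had less new RNA and 0 more (8 and 0 by DESeq2, and 12 and 0 at an unadjusted p under 0.05 in edgeR, beside 55.3% and 5.84% of all tested genes). At the adjusted threshold 38.5% of all tested genes were lower and 3.76% higher. The median log2 fold change of the list was -1.45 against -0.84. The 3 called genes with the lowest values were the methyltransferases KMT2B, SETD1B and SETD1A, next to the shared subunit DPY30 at -1.87 ± 0.38. The other methyltransferases of the list did not pass, KMT2D at -1.31 (adjusted p = 0.0228) and KMT2C at 0.12 (adjusted p = 0.787). KMT2B went from 6.34 ± 0.820 to 1.12 ± 0.876 T>C CPM (-2.44 ± 0.44, adjusted p = 3.76e-05), SETD1B from 23.3 ± 5.25 to 5.07 ± 1.54 (-2.20 ± 0.25, adjusted p = 1.9e-08) and SETD1A from 7.90 ± 1.54 to 2.00 ± 1.05 (-1.94 ± 0.37, adjusted p = 6.2e-05). The odds were lower for 10 of the 14, beside 44.6% of all tested genes. In total RNA WDR82 was lower (-0.54) and KMT2C higher (1.00) among 19 tested genes, beside 6.85% lower and 9.54% higher of all tested genes. With TMM on the T>C reads 4 of the 14 genes remained lower, HCFC1, KMT2B, SETD1B and WDR82, beside 10.0% of all genes tested in that fit, and the median was -0.67 against -0.05.

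The 14 listed target genes of KMT2A fusions were all lower in new RNA: 14 of 14 passed for T>C reads (beside 38.5% of all tested genes), with a median of -1.28 against -0.84, and 14 of 14 for the odds (beside 44.6% of all tested genes), with a median of -1.53 against -1.0. MYC fell from 85.9 ± 19.2 to 15.5 ± 1.90 T>C CPM (-2.47 ± 0.19, adjusted p = 5.22e-12), HOXA7 from 8.27 ± 2.00 to 2.10 ± 0.896 (-1.99 ± 0.35, adjusted p = 2.65e-05) and HOXA10 from 19.5 ± 4.07 to 5.58 ± 0.206 (-1.80 ± 0.24, adjusted p = 3.18e-07). CDK6 at -0.53, PBX3 at -0.62 and JMJD1C at -0.79 fell less in T>C reads than the median of all tested genes. For the odds JMJD1C did so too, at -0.55. MYC was the 1 of the 14 that was lower in total RNA (-1.72, adjusted p = 2.29e-05), beside 6.85% of all tested genes. With TMM on the T>C reads 4 of 14 remained lower, HOXA10, MEF2C, MYB and MYC, beside 10.0% of all genes tested in that fit, with a median of -0.49 against -0.05. The plot of new against total RNA sets these lists beside the 9 tested members.

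**Figure D4:**
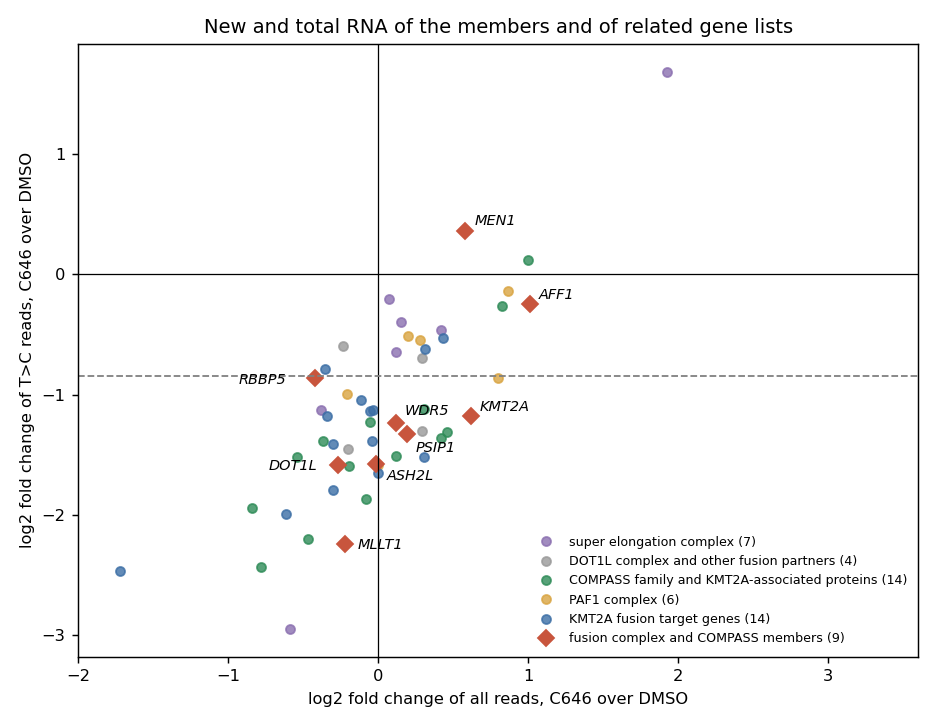
Log2 fold change of T>C reads (vertical axis) against that of all reads (horizontal axis), C646 over DMSO, for the 9 tested members (red diamonds) and the tested genes of 5 related lists (coloured points, with their number in the key); the grey dashed line is the median of T>C reads over all tested genes. MEN1 is the member above 0 on the vertical axis, AFF1 lies farthest right of the members at 1.01, and MLLT1 lies lowest at -2.24.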

How the data were processed

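SLAM-seq was performed on MOLM-13 cells in 3 DMSO and 3 C646 samples, grouped by their titles, with QuantSeq 3′ end libraries. SLAM-Dunk v0.4.1, in its default settings and with GRCh38 as the genome, was run by the authors, and its table of 58136 3′ UTR entries was deposited for each sample. Raw counts of reads, T>C reads (at least 1 conversion), conversions and multimapped reads were made by the authors with it and deposited without normalization. The deposited coverage on T positions is an unscaled signal, and the conversion rate is a fraction, conversions over that coverage, by the authors' software. The reads are also deposited as CPM, which was not used in any test. The study's own comparison used reads with at least 2 conversions, a count not used here.

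Counts were summed over the entries of a gene (25420 genes, 25310 with a symbol). Library size was the TMM-scaled total of all reads. edgeR v4.0.16 (filterByExpr, estimateDisp, glmQLFit, glmQLFTest; R v4.3.3) tested T>C reads, all reads and, with a library factor, the odds of T>C reads within a gene, with Benjamini-Hochberg adjustment over all tested genes. The threshold was an adjusted p of at most 0.01. The SE was derived from the estimate and its F statistic. The scripts were tested on simulated data. DESeq2 v1.42.0, other scalings, no filter, the most used entry alone, an adjusted p of 0.05, a replicate block and leaving out each library were the alternatives. Pairs of replicates differed by more than sampling noise (chi-square per degree of freedom 7.51 to 25.9), and none was merged.

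All 10 members are named. Of each other list, the rule names up to 3 genes, those called (passing, with a log2 fold change of at least 1 in size) with the largest change in T>C reads. Further genes of the lists were named after their values were seen, as stated where the lists are described. The members and lists were chosen with earlier results of these data known, so counts over them are descriptions. Promoter windows (GRCh38.p14) and gene lengths come from RefSeq, and the overlaps of 3′ UTR entries with other genes from GENCODE 44. Python v3.11.15 was used for the summaries.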

Additional observations from a re-analysis of the deposited data

How the results depend on the processing

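The direction and the side of the threshold of the members' log2 fold changes held in 116 of 126 values for T>C reads, 88 of 90 for the T>C odds and 117 of 130 for all reads, over all alternatives. Scaling the T>C reads to their own TMM totals moved the members lower in new RNA from 4 to 1 and those higher from 0 to 1, and turned AFF1 to 0.53. At an adjusted p of 0.05 the members lower in new RNA were 7, beside 3945 of 7760 genes, and those higher in total RNA were 3 in place of 1. Members higher in total RNA were 2 without the filter on low counts, and 0 to 2 when single libraries were left out. In those fits 4 to 5 members were lower in new RNA, beside 2248 to 2968 genes, and 6 to 7 in the odds, beside 2383 to 3353 genes. Signs that turned when 1 library was left out were those of AFF1 in T>C reads (-0.52 to 0.10), WDR5 in all reads (-0.0108 to 0.205), ASH2L in all reads (-0.148 to 0.0636) and MEN1 in the odds (-0.51 to 0.17), none of which passed the test. Over all tested genes, those lower in total RNA were 743, against 1203 without the filter, 1657 at an adjusted p of 0.05 and 234 to 834 without single libraries, and those higher were 1035, against 1444 without the filter, 1768 at that p and 592 to 1046. Genes higher in the odds were 88, against 58 to 83. The causes were not tested.

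Replicate numbers are shared by both groups. Deviations of same-numbered libraries correlated at 0.03, 0.04 and 0.07 for T>C reads and at -0.0015, 0.14 and 0.23 for all reads, so the numbers were not taken to pair the libraries. Every library correlated best with its own number for T>C reads, which is a hint from the data and not from the design, but not for all reads. With a replicate block 4 members were lower in new RNA, beside 3056 genes (39.4%), and 2 were higher in total RNA, MEN1 being added (0.55, adjusted p = 0.00303), beside 1409 genes (13.0%), while 1220 genes were lower. Among the other lists the replicate block added EPS15 and KMT2D to the genes lower in new RNA. Depth limits MLLT3 most, with 27 T>C reads over all libraries, and then KMT2A and PSIP1, with 114 each.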
